A study of Macaca mulatta with 24 samples.

Results

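Neurotrophins, GDNF and their receptors were followed in the core of the nucleus accumbens (NAcc) through 9 genes, namely BDNF, NTF3, NTRK2, NTRK3, NGFR, GDNF, GFRA1, GFRA2 and RET. They were taken by gene symbol, and all 9 were found among the 17208 symbols measured by RNA-Seq in 24 rhesus macaques. Levels are given in TPM (a unit for transcripts, read numbers divided by gene length and scaled to a fixed total for each animal), so that levels of different genes can be set side by side. Averaged over all animals, 13637 symbols and 7 of the 9 genes reached 1 TPM; BDNF and NTF3 lay below it.

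All animals were unrelated adult males that obtained fluid and food from operant panels. Drinkers were induced to self-administer a dilute ethanol solution by scheduled food delivery and then had about a year of daily open access to ethanol and water, while the 8 Control animals went through the same sessions with water and received a maltose dextrin solution to match calories. The 16 drinkers were 8 LD* animals (low and binge drinkers, all labelled LD) and 8 HD* animals, of which 4 were heavy (HD) and 4 very heavy drinkers (VHD). Tissue was taken without imposed abstinence, and each animal gave 1 library. LD* animals drank 1.58 ± 0.53 g/kg of ethanol per day (SD, n = 8), and HD* animals 3.14 ± 0.33 g/kg (SD, n = 8). Cohort 4 held 2 LD* animals, cohort 5 held 3 Control and 4 HD*, cohort 7a held 2 Control, 3 LD* and 4 HD*, and cohort 7b held 3 Control and 3 LD* animals, so Control and HD* animals met in cohorts 5 and 7a alone. The animals' ages were not used here, and TPM values do not carry the read depth of each library.

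BDNF and NTF3 encode secreted neurotrophins that act through the receptor tyrosine kinases encoded by NTRK2 and NTRK3, while the receptor encoded by NGFR binds every neurotrophin and also their uncleaved precursors. GDNF binds a lipid-anchored co-receptor encoded by GFRA1, its relative neurturin prefers the product of GFRA2, and both pairs signal through the kinase RET. Much of the BDNF protein of the striatum is made by cortical and midbrain neurons and carried there along axons, GDNF is made by interneurons of the striatum itself, NGFR is known from basal forebrain cholinergic neurons, and truncated forms of the NTRK2 receptor are abundant in astrocytes.

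The tissue label was first set against marker lists. All 11 striatal projection neuron markers averaged 1 TPM or more, PENK being the most abundant (mean 2638 TPM), and their summed level had a median of 7522 TPM. It lay under 0.5 times that median in 4 libraries, at 774 TPM in control replicate 6, 2732 TPM in control replicate 8, 3537.5 TPM in HD* replicate 4 and 3632 TPM in LD* replicate 4, and between 4521 and 12060.2 TPM in all others. In 3 of these (control replicates 6 and 8 and HD* replicate 4) the cholinergic marker SLC18A3, chosen after its values were seen, stood at 57.2, 28.5 and 18.5 TPM against at most 14.3 TPM elsewhere. The 5 cortical excitatory neuron markers, led by SLC17A7 (0.866 to 722 TPM), summed to 106 to 872 TPM in 7 libraries (control replicates 2 and 7, LD* replicates 2, 4 and 6, HD* replicates 3 and 7) and to at most 39.3 TPM in the others. Several results are given with and without these libraries.

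Of the other lists, 7 are given here. Summed levels ran from 685 to 2093 TPM for 8 of 8 interneuron markers (SST the most abundant), from 26.8 to 94.6 TPM for 3 of 3 oligodendrocyte precursor markers (GPR17) and from 1769 to 8022 TPM for 6 of 6 astrocyte markers (GFAP). They ran from 165 to 442 TPM for 6 of 6 microglial markers (C1QA), from 94.0 to 172 TPM for 5 of 6 endothelial and mural markers (CLDN5; PECAM1 was not found) and from 15.2 to 65.5 TPM for 4 of 4 fibroblast and choroid plexus markers (DCN). Of 4 midbrain dopamine neuron markers, 2 averaged 1 TPM or more, TH was the most abundant (1.19 to 9.67 TPM) and the dopamine transporter SLC6A3 was at most 0.200 TPM. No marker of any list was at 0 in all 24 animals. In bulk tissue, fewer cells of a type and less RNA per cell cannot be told apart.

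Ranked by median level, NTRK2 (298 TPM) stood first, followed by NTRK3 (55.6 TPM), GFRA1 (23.0 TPM), GFRA2 (8.37 TPM), GDNF (1.15 TPM), RET (0.912 TPM), NGFR (0.531 TPM), BDNF (0.170 TPM) and NTF3 (0.0225 TPM). NTRK2 exceeded NTRK3 in 24 of 24 animals, NTRK3 exceeded GFRA1 in 23, and GFRA1 exceeded GFRA2, and GFRA2 exceeded GDNF, in all 24. The order at the lower end was looser. GDNF exceeded RET in 14 animals, RET exceeded NGFR in 17, NGFR exceeded BDNF in 19 and BDNF exceeded NTF3 in 22, so that the order of GDNF, RET and NGFR differed between animals. The receptors NTRK2, NTRK3, GFRA1 and GFRA2 were thus measured well above their ligands, while RET, the kinase that GDNF co-receptors share, was near 1 TPM.

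**Figure D1:**
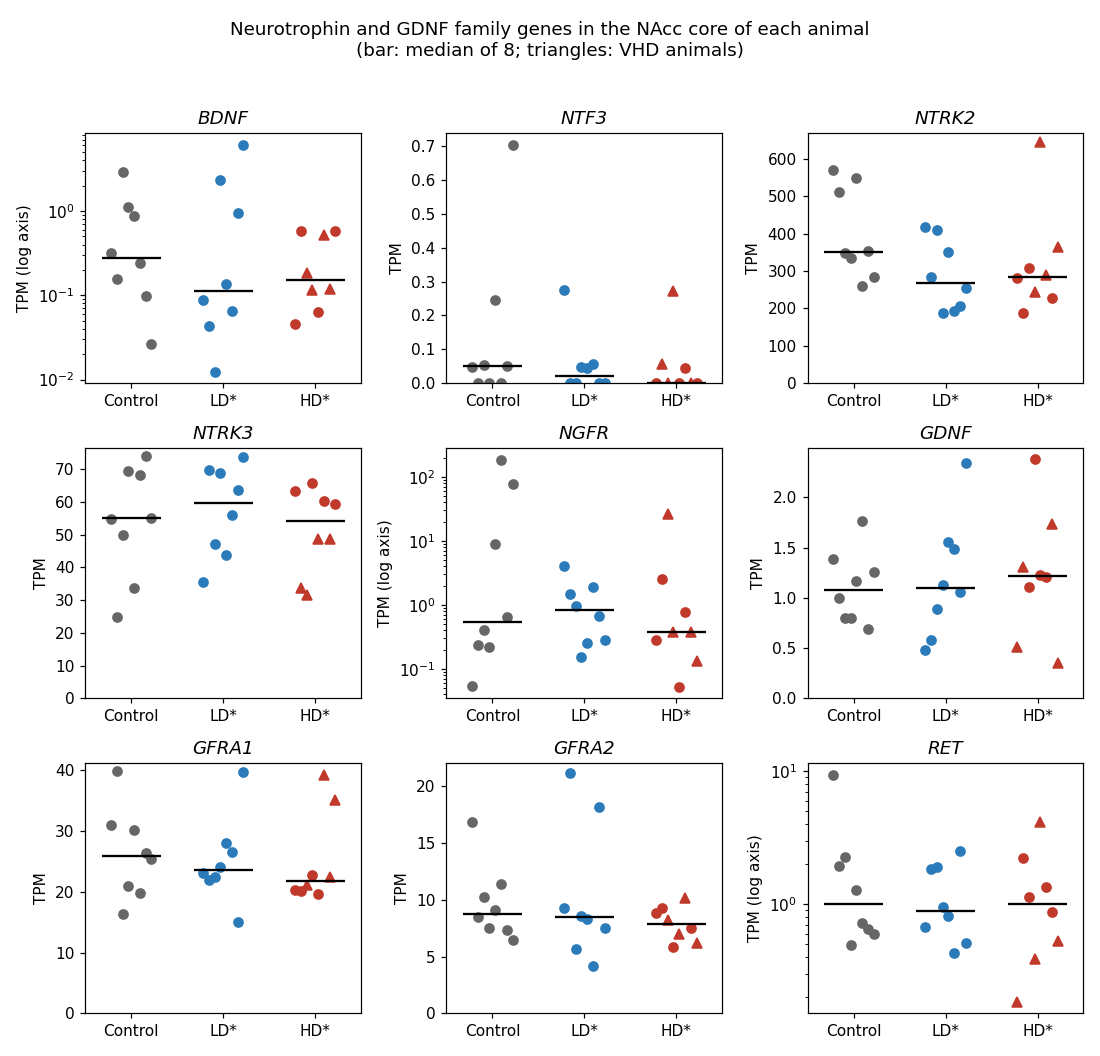
Level of each of the 9 genes in every animal, in TPM, by group; the axis is logarithmic for BDNF, NGFR and RET and starts at 0 for the others. Each point is 1 animal, bars are medians of 8 and triangles mark VHD animals; the groups overlap for every gene, and single animals stand far above the rest for NGFR (185 TPM in a Control animal) and BDNF (6.13 TPM in an LD* animal).

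Among the ligands, BDNF was low in most animals and high in a few. Its lowest, median and highest levels were 0.0261, 0.279 and 2.90 TPM in Control, 0.0123, 0.113 and 6.13 TPM in LD* and 0.0459, 0.151 and 0.586 TPM in HD* animals. It was under 1 TPM in 20 of the 24 animals, and the 4 exceptions (LD* replicate 4, control replicate 2, LD* replicate 2 and control replicate 7, at 6.13, 2.90, 2.35 and 1.11 TPM) were libraries with high cortical markers, SLC17A7 standing there at 722, 348, 212 and 119 TPM. Over 24 animals BDNF and the summed cortical markers had a Pearson r of 0.82 (Spearman rho 0.80) on the log2 scale, 0.75 without the 2 animals farthest from the median of the marker sum, 0.84 over the 20 animals left without the libraries low in projection neuron markers, and 0.86 within both cohort 5 (7 animals) and cohort 7a (9 animals). The points share a library each, and the part of cortical tissue in the BDNF levels was not tested. Without the 7 libraries high in cortical markers, the highest BDNF level was 0.882 TPM in Control, 0.138 TPM in LD* and 0.524 TPM in HD* animals.

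**Figure D2:**
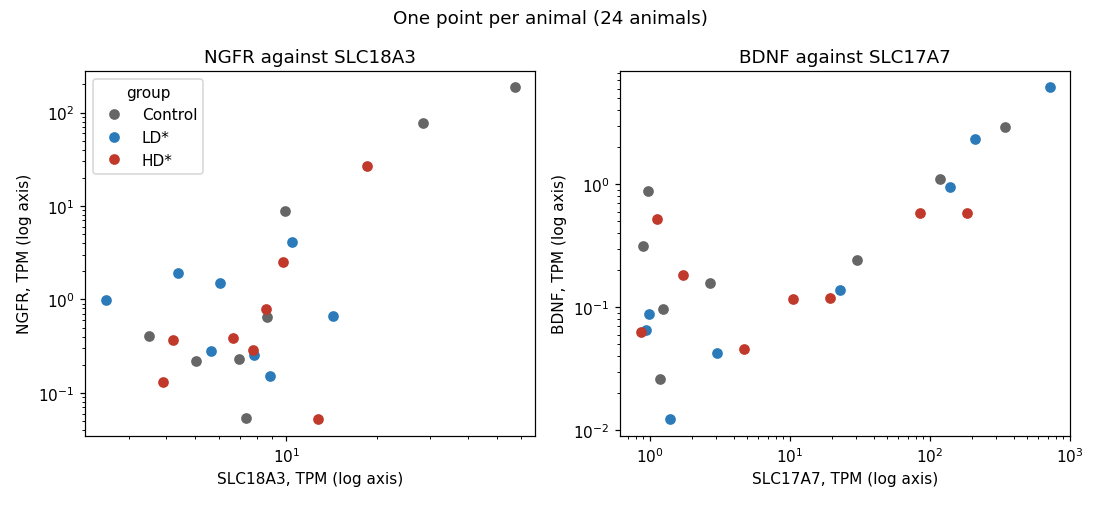
NGFR against the cholinergic marker SLC18A3 and BDNF against the cortical excitatory marker SLC17A7, both in TPM on logarithmic axes, with 1 point for each of 24 animals coloured by group. The highest NGFR levels (185, 77.1 and 26.5 TPM) are in the 3 libraries with the highest SLC18A3, and the highest BDNF level (6.13 TPM) is in the library with the highest SLC17A7 (722 TPM).

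NTF3, the ligand of the NTRK3 receptor, was listed at 0 in 12 of 24 animals, 3 Control, 4 LD* and 5 HD*, and never exceeded 0.702 TPM, the level in control replicate 6. Control replicate 8, LD* replicate 2 and HD* replicate 4 followed at 0.246, 0.276 and 0.272 TPM, and all remaining animals lay at or below 0.0578 TPM. GDNF showed no such tail. Its levels ran from 0.693 to 1.77 TPM in Control (median 1.08), from 0.482 to 2.35 TPM in LD* (median 1.10) and from 0.352 to 2.39 TPM in HD* animals (median 1.22), and the 3 ranges overlapped. GDNF and the cholinergic interneuron marker SLC18A3 had an r of 0.55 and a rho of 0.77 over 24 animals (r 0.75 in cohort 5 and 0.73 in cohort 7a), and r was 0.84 without the 2 farthest animals and 0.85 over the 20 animals left without the 4 libraries low in projection neuron markers. For the sum of all 8 interneuron markers r was 0.51 and rho 0.45 over 24 animals, and r was 0.66 over those 20. The part of interneurons in the GDNF level was not tested. Of the ligands outside the 9 genes, the GFRA2 ligand neurturin, NRTN (mean 3.14 TPM), was the most abundant of the GDNF family, whereas the neurotrophin gene NTF4 was at 0 in 20 animals.

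NTRK2, which encodes the BDNF receptor, was expressed at 259, 352 and 570.3 TPM (lowest, median, highest) in Control, 188, 269 and 417 TPM in LD* and 188, 285 and 645 TPM in HD* animals. The 3 highest Control animals (control replicates 5, 6 and 8, at 549.7, 570.3 and 513 TPM) and HD* replicate 4 (645 TPM) lay above every LD* animal, and the remaining animals of the groups overlapped. The level followed the summed astrocyte markers across 24 animals (Pearson r 0.88, rho 0.86; 0.85 without the 2 farthest animals; 0.82 over the 20 animals left without the libraries low in projection neuron markers; 0.85 in cohort 5 and 0.91 in cohort 7a) and ran opposite to the projection neuron markers (r −0.75, rho −0.74; −0.62 over those 20). NTRK2 also ran with summed microglial markers (r 0.75 over 24 animals, 0.67 over those 20, 0.90 in cohort 5 and 0.75 in cohort 7a). With summed fibroblast and choroid plexus markers r was 0.72, and 0.60 over those 20. Values were summed over each gene, so full-length and truncated forms of the receptor were not separated, and the parts of astrocytes and of the other cell types in the NTRK2 level were not tested.

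NTRK3, the NTF3 receptor gene, had lowest, median and highest levels of 24.8, 55.0 and 74.0 TPM in Control, 35.5, 59.8 and 73.7 TPM in LD* and 31.5, 54.2 and 65.8 TPM in HD* animals. The 4 lowest levels came from control replicates 8 and 6 (24.8 and 33.8 TPM) and HD* replicates 8 and 6 (31.5 and 33.7 TPM), the latter both VHD animals. NTRK3 ran with the projection neuron markers (r 0.74, rho 0.81 over 24 animals; 0.73 without the 2 farthest animals; 0.90 in cohort 5 and 0.91 in cohort 7a), the reverse of NTRK2. The pair had an r of −0.52 over 24 animals and −0.31 over the 20 animals left without the 4 libraries low in projection neuron markers.

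NGFR varied more than any other of the 9 genes. Its SD of log2 values was 2.02, above that of 99.97% of the 13637 tested genes. Lowest, median and highest levels were 0.0543, 0.531 and 185 TPM in Control, 0.151, 0.817 and 4.07 TPM in LD* and 0.0521, 0.377 and 26.5 TPM in HD* animals. Control replicates 6 and 8 (185 and 77.1 TPM), HD* replicate 4 (26.5 TPM) and control replicate 5 (8.91 TPM) stood above all others. The first 3 of these are the libraries with few projection neuron transcripts and high SLC18A3. Over 24 animals NGFR and SLC18A3 had an r of 0.80 but a rho of 0.42, with r 0.82 in cohort 5 and 0.73 in cohort 7a, and r was 0.46 without the 2 farthest animals and 0.26 over the 20 animals left without the 4 libraries low in projection neuron markers. This relation rested on those few libraries. Against the sum of all 8 interneuron markers NGFR had an r of −0.20 and a rho of −0.12 over 24 animals. With the projection neuron markers NGFR had an r of −0.85 and a rho of −0.78 over 24 animals (−0.78 in cohort 5 and −0.79 in cohort 7a), −0.63 without the 2 farthest animals and −0.58 over those 20, and with the astrocyte markers an r of 0.70 (rho 0.69; 0.51 over those 20; 0.66 in cohort 5 and 0.62 in cohort 7a), which was 0.61 without the 2 farthest animals. The parts of these cells in the NGFR levels were not tested.

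GFRA1, the GDNF co-receptor gene, had the smallest SD of log2 values among the receptors of the 9 genes (0.37, beside 0.43 for NTRK3). Its levels were 16.4, 25.9 and 39.9 TPM (lowest, median, highest) in Control, 15.1, 23.6 and 39.7 TPM in LD* and 19.6, 21.8 and 39.2 TPM in HD* animals. GFRA2 ran from 6.48 to 16.9 TPM in Control (median 8.76), from 4.17 to 21.1 TPM in LD* (median 8.45) and from 5.80 to 10.1 TPM in HD* animals (median 7.85), with its highest levels in LD* replicates 2 and 4 and control replicate 6. GFRA2 and BDNF, both high in LD* replicates 2 and 4, had an r of 0.70 over 24 animals and 0.62 over the 20 animals left without the libraries low in projection neuron markers.

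RET lay between 0.184 and 2.49 TPM except in control replicate 6 (9.38 TPM) and HD* replicate 4 (4.11 TPM). Group medians were 0.999, 0.888 and 0.997 TPM in Control, LD* and HD* animals. Like NGFR it was high where SLC18A3 was high (r 0.75, rho 0.65 over 24 animals; 0.91 in cohort 5 and 0.80 in cohort 7a), and r was 0.52 without the 2 farthest animals and 0.58 over the 20 animals left without the 4 libraries low in projection neuron markers. RET is also known from dopamine neurons, and with the summed midbrain dopamine neuron markers it had an r of 0.79 (rho 0.73 over 24 animals; 0.63 in cohort 5 and 0.66 in cohort 7a), which was 0.71 without the 2 farthest animals and 0.71 over the same 20. In that dopamine list SLC6A3 and SLC18A2 averaged under 1 TPM. TH was highest (9.67 TPM) in control replicate 6, the animal with the highest RET. SLC6A3 was highest (0.200 TPM) in HD* replicate 8, the animal with the lowest RET. Summed oligodendrocyte precursor markers gave an r of 0.67 with RET (rho 0.66), 0.68 over those 20, 0.27 in cohort 5 and 0.77 in cohort 7a. For all 8 summed interneuron markers r was 0.17 over 24 animals and 0.52 over those 20. The parts of these cell types in the RET levels were not tested. RET and NGFR had an r of 0.80 over 24 animals and 0.47 over those 20.

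The first question of the study design was whether expression in drinkers differs from that of controls. In HD* against Control animals, 0 of the 9 genes and 0 of all 13637 tested genes (0%) passed an adjusted p of 0.05 (limma on log2(TPM + 1), Benjamini-Hochberg over all genes tested). An unadjusted p under 0.05 was reached by 775 genes (5.68%), of which 54 were higher and 721 lower in HD* animals (304 and 198 after TMM rescaling, by a trimmed mean of log ratios between libraries), and by 0 of the 9. This count depended on single animals, being 313, 406, 482 and 513 without HD* replicate 8, control replicate 5, HD* replicate 6 and HD* replicate 5, and 2161 and 1348 without HD* replicate 4 and control replicate 8; it was 2955 without the libraries low in projection neuron markers. The log2 difference was −1.26 for NGFR (SE 0.92, adjusted p = 0.706), −0.37 for NTRK2 (SE 0.23, adjusted p = 0.706; −0.37 without the libraries low in projection neuron markers, −0.39 without those high in cortical markers and −0.0928 with cell marker covariates), −0.30 for BDNF, −0.25 for RET, −0.23 for GFRA2, −0.10 for NTF3, −0.06 for GFRA1, −0.03 for NTRK3 and 0.04 for GDNF. These are differences of mean log2(TPM + 1), which understate changes of weakly expressed genes. Estimates were negative for 8 of 9 genes with a median of −0.23, while the median over all genes was −0.12; with TMM the median over all genes was 0.00, 6 of 9 were negative, and NTRK3 (0.10) and GFRA1 (0.07) turned positive. The difference for NGFR was −0.27 without the 4 libraries low in projection neuron markers and −0.52 without control replicate 6 alone. Single animals also moved smaller estimates, to −0.11 for BDNF without control replicate 2 and to −0.0149 for NTF3, −0.12 for GFRA2 and 0.0458 for RET without control replicate 6.

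In LD* against Control animals, 0 of 9 genes and 0 of 13637 genes (0%) passed the threshold with limma. An unadjusted p under 0.05 was reached by 387 genes (245 without control replicate 6 and 706 without LD* replicate 4). Of these 40 were higher and 347 lower (161 and 221 after TMM rescaling), and NTRK2 was among the lower ones (2.54% of all genes), with a log2 difference of −0.49 (SE 0.23, adjusted p = 1.00); 6 of 8 LD* animals lay below the Control median of 352 TPM. The difference was −0.63 in cohort 7a and −0.63 in cohort 7b, the 2 cohorts with both groups, −0.41 without the libraries low in projection neuron markers, −0.89 without those high in cortical markers (adjusted p = 0.951) and −0.23 with cell marker levels as covariates. In cohort 7a the 2 Control animals were control replicate 8 at 513 TPM and control replicate 7 at 284 TPM. The first was low in projection neuron markers, and the second lay within the LD* range of that cohort (188 to 410 TPM). In cohort 7b control replicate 6 and LD* replicate 4 were also low in these markers. Over all alternatives the adjusted p for NTRK2 was at least 0.844. Summed astrocyte markers averaged 4581 TPM in Control and 3575 TPM in LD* animals, with overlapping ranges. Summed oligodendrocyte precursor markers averaged 72.0 and 57.1 TPM, also with overlap. NGFR had the largest estimate (−1.40, SE 0.92, adjusted p = 1.00), which was 0.11 without the libraries low in projection neuron markers and −2.33 without those high in cortical markers. For the others the log2 difference was −0.25 for RET, −0.09 for NTF3, −0.06 for GFRA1, −0.02 for GFRA2 (0.02 after TMM rescaling), 0.03 for GDNF, 0.13 for NTRK3 and 0.12 for BDNF. The last was −0.18 without LD* replicate 4 and −0.24 without the libraries high in cortical markers.

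HD* and LD* animals, compared to ask about the amount drunk, gave 0 of 9 and 0 of 13637 genes (0%) past the threshold with limma, and 147 genes at an unadjusted p under 0.05. That count was 71 without HD* replicate 8, 534 without LD* replicate 5 and 548 without HD* replicate 4. Both comparisons above share their Control animals and are not independent. The 9 log2 differences between HD* and LD* ran from −0.42 for BDNF (SE 0.34, adjusted p = 0.966) to 0.15 for NGFR (SE 0.92, adjusted p = 0.977). BDNF was 0.12 without the libraries high in cortical markers, and NGFR −0.38 without those low in projection neuron markers. Daily intake among the 16 drinkers gave 0 genes of 13637 (0%) past the threshold with limma (907 at an unadjusted p under 0.05), and slopes ran from −0.28 for BDNF to 0.15 for NGFR per g/kg on the log2 scale, with adjusted p of at least 0.512 for all 9. The count of 907 was 307 without LD* replicate 2, 318 without HD* replicate 8 and 1911 without HD* replicate 4. With cohort as covariate 4014 genes had an unadjusted p under 0.05 and again 0 passed the threshold, and the NTRK3 slope went from −0.15 to −0.43 (adjusted p = 0.134, the smallest among the 9; 0.134 to 0.881 over the alternatives for NTRK3).

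The balance of receptor transcripts was read from ratios within each animal, which cancel the scaling of a library apart from the pseudocount. They do not cancel differences in cell types between libraries. Over 24 animals NTRK2 had an r of 0.88 with astrocyte markers, and NTRK3 an r of 0.74 with projection neuron markers. The part of cell types in the ratios was not tested. The ratio of NTRK2 to NTRK3 ran from 3.50 to 20.7 in Control (median 6.40), 2.69 to 9.52 in LD* (median 5.12) and 2.97 to 13.3 in HD* animals (median 6.06). The log2 ratio differed by −0.62 between LD* and Control and by −0.35 between HD* and Control (two-sided exact permutation, p = 0.171 and 0.412, adjusted p = 0.600 for both over 6 comparisons). Without the libraries high in cortical markers the difference between LD* and Control was −1.22 (exact permutation, p = 0.0498, not adjusted). Without control replicate 8 the difference between HD* and Control was −0.14. The ratio of GFRA1 to GFRA2 had medians of 3.09, 2.69 and 3.13 in Control, LD* and HD* animals, and its log2 differences lay between −0.04 and 0.21 (exact permutation, adjusted p = 0.600 to 0.899).

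VHD and HD animals were compared to ask whether the very heavy drinking category stands apart among the 8 HD* animals. Daily intake was 2.74 to 3.09 g/kg in HD and 3.09 to 3.78 g/kg in VHD animals. HD* replicate 3 (HD) and HD* replicate 6 (VHD) both drank 3.09 g/kg. NTRK3 was measured at 65.8, 60.3, 63.4 and 59.5 TPM in the HD animals (HD* replicates 2, 3, 5 and 7) and at 48.8, 48.7, 33.7 and 31.5 TPM in the VHD animals (HD* replicates 1, 4, 6 and 8). Every VHD animal lay below every HD animal, in cohort 5 as in cohort 7a, and the difference was −0.63 on the log2 scale (SE 0.17, adjusted p = 0.0308 with limma). NTRK3 was the only 1 of the 9 genes past the threshold, where 1997 of 13637 genes (14.6%) passed it, 441 higher and 1556 lower (11.4%); VHD animals lay entirely below HD animals for 2445 genes (17.9%). With TMM rescaling, which moved the median over all genes from −0.17 to 0.00, the genes past the threshold were 1180 higher and 1416 lower, NTRK3 was at −0.43 (adjusted p = 0.0275), and NTRK2 (0.74, adjusted p = 0.0341) and GFRA1 (0.64, adjusted p = 0.0129) passed as higher in VHD animals, whereas with cell marker covariates NTRK2 was at −0.74 and GFRA1 at 0.0385.

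Marker levels moved along with this contrast. Summed projection neuron markers were 10382, 9324, 10917 and 9742 TPM in the HD animals and 6291.5, 3537.5, 5208 and 6233 TPM in the VHD animals, with no overlap, and summed astrocyte markers ran from 1769 to 3253 TPM in HD and from 3917 to 6570.3 TPM in VHD animals, also with no overlap. Summed microglial markers ran from 184 to 250 TPM in HD and from 248 to 405 TPM in VHD animals, with overlap. TMM factors were 1.01 to 1.03 in HD animals and 0.94, 1.13, 0.83 and 0.69 in HD* replicates 1, 4, 6 and 8, the VHD animals. With marker levels as covariates the NTRK3 difference was −0.75 with an SE of 0.87 (adjusted p = 0.983), and 0 of 13637 genes passed the threshold. With no filter on low levels the NTRK3 difference had an adjusted p of 0.0521. Without the 2 HD animals whose cortical markers were high, NTRK3 was at −0.68 (adjusted p = 0.214) and 25 genes passed. Leaving out each animal in turn gave NTRK3 differences between −0.72 and −0.52 and adjusted p between 0.00804 and 0.109, above 0.05 without HD* replicates 2, 3, 5, 6 or 7. The parts of projection neurons and of intake in the lower NTRK3 level cannot be told apart here.

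**Figure D3:**
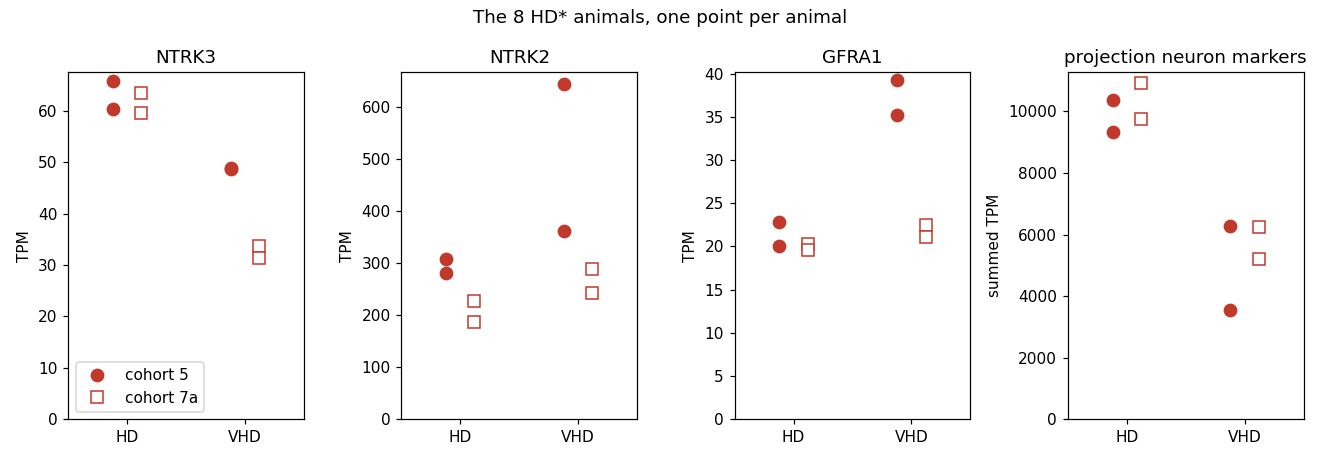
NTRK3, NTRK2, GFRA1 and the sum of 11 projection neuron markers in the 8 HD* animals, in TPM on axes from 0, with HD animals on the left and VHD animals on the right of each panel; each point is 1 animal, filled circles are cohort 5 and open squares cohort 7a. NTRK3 is at 59.5 to 65.8 TPM in HD and 31.5 to 48.8 TPM in VHD animals (the points at 48.8 and 48.7 TPM coincide), and the marker sum separates them in the same way.

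GFRA1 was measured at 22.8, 20.1, 20.3 and 19.6 TPM in HD and at 35.2, 39.2, 22.5 and 21.2 TPM in VHD animals. In each cohort both VHD animals lay above both HD animals, by more in cohort 5 than in cohort 7a, and the log2 difference was 0.45 (SE 0.21, adjusted p = 0.162). NTRK2 was measured at 308, 281, 188 and 227 TPM in HD and at 363, 645, 289 and 243 TPM in VHD animals, a log2 difference of 0.54 (SE 0.27, adjusted p = 0.182) that was 0.25 without HD* replicate 4. Within each cohort both VHD animals lay above both HD animals, and the ranges overlapped across cohorts. The ratio of NTRK2 to NTRK3 was 2.97 to 4.68 in HD and 7.44 to 13.3 in VHD animals, with no overlap, and was not tested between them. NTRK3 alone, summed projection neuron markers and summed astrocyte markers also separated these animals. VHD animals lay entirely below HD animals for 2445 of 13637 genes (17.9%). RET was at 1.35, 1.12, 0.869 and 2.24 TPM in HD and at 0.530, 4.11, 0.390 and 0.184 TPM in VHD animals. Its difference was −0.31 (adjusted p = 0.618), but without HD* replicate 4, the VHD library with high SLC18A3, it was −0.79 (adjusted p = 0.0164 with limma). The animal left out decided the call, and in that setting 4651 of all 13637 genes passed the threshold, beside 1997 with all 8 animals. The other 5 genes had differences of −0.36 (GDNF), −0.08 (BDNF), 0.00 (GFRA2), 0.09 (NTF3) and 0.70 (NGFR), with adjusted p of at least 0.356. Without HD* replicate 4 GDNF was at −0.54 and NTF3 at 0.0103, and without HD* replicate 8 GDNF was at −0.20.

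Cohort was examined as a batch. No gene of 13637 (0%) and none of the 9 differed between cohorts at the threshold (limma, smallest adjusted p 0.540 over all genes and 0.547 for the 9; 1140 genes at an unadjusted p under 0.05). The count of 1140 was 672 without control replicate 1 and 1795 without HD* replicate 5. In the pair of cohorts that held both Control and HD* animals, NTRK2 differed between HD* and Control by 0.28 in cohort 5 and −0.70 in cohort 7a, NGFR by 1.32 and −2.88, RET by 0.63 and −0.62, and GFRA1 by 0.42 and −0.22 on the log2 scale. The difference between these effects was −0.98 for NTRK2 (SE 0.43), −4.20 for NGFR (SE 1.79) and −1.25 for RET (SE 0.60), each with an adjusted p of 1.00. NTRK2 and NGFR were 2 of 235 genes (1.72%) with a lower effect in cohort 7a at an unadjusted p under 0.05, and 0 genes (0%) passed the threshold. The count of 235 was 116 without control replicate 3 and 349 without control replicate 2. Control animals of cohort 7a number 2, of which 1 is control replicate 8; without the libraries low in projection neuron markers the values were −0.30 for NTRK2, −0.36 for NGFR and −0.64 for RET. Without those high in cortical markers they were −1.61, −7.73 and −1.82. Each of these 2 choices leaves 1 Control animal in cohort 7a, replicate 7 and replicate 8 in turn, which is assumed to vary like the other groups.

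The pathway around the 9 genes was described with a list of 97 genes in 11 roles, of which 96 were found (BEX3 was not) and 89 averaged 1 TPM or more. In HD* against Control animals 21 of 89 had higher and 68 lower estimates, with a median of −0.13 beside −0.12 over all genes, and 5 had an unadjusted p under 0.05, all lower, which is 5.62% of 89 beside 5.68% of all genes. The NGFR partner kinase RIPK2 was expressed at 5.49, 6.59 and 8.21 TPM (lowest, median, highest) in Control and 3.24, 4.88 and 5.62 TPM in HD* animals, a log2 difference of −0.46 (SE 0.12, adjusted p = 0.706). LRIG3, of a family of membrane proteins that restrain receptor kinases, was at −0.46 (SE 0.16), the RAS exchange factor SOS2 at −0.30, the ubiquitin ligase CBL at −0.26 and the phosphatase PTPN11 at −0.23, all with an adjusted p of 0.706. None of these differences passed the threshold, and all kept their sign after TMM rescaling.

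In LD* against Control animals 46 of 89 estimates were positive and 43 negative (median 0.00 beside −0.03 over all genes), with 1 higher and 4 lower at an unadjusted p under 0.05 (5.62% of 89 beside 2.84% of all genes, of which 40 were higher and 347 lower). The higher gene was GFRA4, a co-receptor gene of the GDNF family, at 13.6, 30.1 and 41.7 TPM in Control and 20.4, 38.7 and 58.9 TPM in LD* animals (log2 difference 0.48, SE 0.20, adjusted p = 1.00). Besides NTRK2, the lower ones were LRIG1 (−0.43, SE 0.17), LRIG3 (−0.44) and RIPK2 (−0.27), each with an adjusted p of 1.00. LRIG1, the most abundant gene among the inhibitors of receptor signalling (mean 87.6 TPM), was expressed at 71.8, 92.7 and 169 TPM in Control against 58.7, 72.0 and 101 TPM in LD* animals. HD* against LD* animals gave 18 positive and 71 negative estimates, beside 3647 and 9990 over all genes (6571 and 7066 after TMM rescaling), and 0 of 89 at an unadjusted p under 0.05.

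Between VHD and HD animals 20 of 89 pathway genes passed the threshold, 1 higher and 19 lower, which is 22.5% beside 14.6% of all genes, and the median estimate was −0.31 beside −0.17. Of 8 neurotrophin receptor genes 4 were lower, namely NTRK3 and the sortilin family members SORT1 (−0.99, SE 0.22, adjusted p = 0.0145), SORCS2 (−0.66, adjusted p = 0.0144; −0.46 and adjusted p = 0.0559 after TMM rescaling) and SORCS3 (−0.93, adjusted p = 0.0377), which bind neurotrophin precursors or traffic with the receptors. The cell adhesion molecule NCAM1, a further GDNF receptor, was at 208 to 252 TPM in HD and 80.5 to 164 TPM in VHD animals (−0.95, adjusted p = 0.0107), and the adaptor SHC3 was the gene that was higher (0.61, adjusted p = 0.0245). These 5 were named after their values were seen. By role, the most abundant receptor adaptor GRB2 was at 177 to 214 TPM in HD and 101 to 146 TPM in VHD animals (−0.69, SE 0.15, adjusted p = 0.0136). The most abundant of 6 genes known to be induced by BDNF, the neuropeptide precursor gene VGF, was at 208 to 259.8 TPM in HD and 67.5 to 133 TPM in VHD animals (−1.21, SE 0.20, adjusted p = 0.00527). With cell marker covariates 0 of these genes passed, and the log2 differences were −1.36 for SORT1, −1.07 for NCAM1, −0.49 for GRB2, −0.44 for SORCS3, 0.20 for SORCS2, 0.39 for SHC3 and 1.12 for VGF. Calls also depended on single animals, being lost for GRB2 without HD* replicates 3, 5 or 6, for SORT1 without 3 or 6, for SORCS2 without 6 or 7, for SORCS3 without 2, 3, 5, 6 or 7 and for SHC3 without 3, 5, 6 or 7 (adjusted p of 0.0508 to 0.124), while VGF and NCAM1 passed without any 1 of the 8. Without the libraries high in cortical markers all 7 calls were lost with 2 HD animals left, while the log2 differences were −1.08 for VGF (adjusted p = 0.1002), −0.87 for NCAM1, −0.90 for SORT1, −0.58 for SORCS2, −0.93 for SORCS3, −0.63 for GRB2 and 0.49 for SHC3 (adjusted p of 0.148 to 0.280), and with no filter that for SORCS3 was lost (adjusted p = 0.0885).

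The most abundant genes of 6 other roles had log2 differences between −0.13 and 0.32 in the comparisons of HD* and LD* with Control animals. They were NRTN, the secretory granule enzyme CPE (mean 2044 TPM), the surface proteoglycan SDC3 (215 TPM), the NGFR partner BEX1 (846 TPM), the kinase MAPK3 (404 TPM) and the PI3K subunit PIK3R2 (111 TPM). Genes of the list with a mean under 1 TPM were BDNF, NTF3, NTF4, ARTN, PSPN, LINGO1 and RTN4R.

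Genes most like each of the 7 better expressed ones were sought by Pearson r over the 24 animals, which share the library differences described above. NTRK3 was closest to SMAP2 and ABCC5 (both r 0.97) and CNTNAP2 (0.96), and had an r of at least 0.7 with 3500 of 13636 genes (25.7%), so that its pattern was a widespread one. NTRK2 was closest to NHSL1, ARHGAP31 and LEPROT (r 0.95, 0.94 and 0.94; 6.12% of genes at 0.7 or more). NGFR was closest to SLC25A1, RNF135 and GAL (r 0.96, 0.94 and 0.91), falling to 0.75, 0.64 and 0.74 without the 4 libraries low in projection neuron markers. RET was closest to KIAA1024, NEFH and CERK (r 0.94, 0.93 and 0.93), and GFRA2 to GLT25D2, PLXNA1 and VOPP1 (r 0.88, 0.87 and 0.86). GDNF (RBM20, SGCZ and KLHDC8B, r 0.83, 0.81 and 0.78) and GFRA1 (GRK5 and HAUS4, r 0.76 and 0.71) had few such partners, with 21 and 2 genes at an r of at least 0.7.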

How the data were processed

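The authors made polyA-selected TruSeq libraries from NAcc core RNA of 24 animals, aligned reads by STAR 2.5.2b to MacaM, a rhesus genome assembly, keeping unique alignments, and counted them per gene by HTSeq 0.6.1p1. The deposited values are TPM made by the authors; how they were derived from counts, and with which gene lengths, is not stated. Library strand is described differently in the sources, so reads of overlapping antisense genes may not be separated; in a RefSeq annotation of a different rhesus build, other genes overlap BDNF, NTF3, NTRK3 and GDNF. Columns add up to between 999998 and 1000000, so no counting error is given. Of the symbols, 27 had been turned into dates and were kept.

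Genes averaging 1 TPM or more entered limma 3.58.1 (run in R 4.3.3) as log2(TPM + 1), with an empirical Bayes trend and Benjamini-Hochberg adjustment over all of them; BDNF and NTF3 were read from the same model with no filter. One model of all 24 animals gave the 3 group comparisons; VHD against HD used the 8 HD* animals, the slope the 16 drinkers, and the cohort interaction cohorts 5 and 7a. Ratios were tested by two-sided exact permutation over 12870 assignments. Of correlations with markers, 117 were computed, as a description. The genes and lists were chosen with earlier results of these data known. Named genes were the 9, up to 5 pathway genes with the smallest unadjusted p under 0.05 in each of 3 group comparisons, the most abundant gene of each role and marker list, and the 3 genes most like each of the 7 that averaged 1 TPM or more; a few genes under this rule are not reported. Tests were tested on simulated data. Alternatives were pseudocounts of 0.1 and 8, a filter at 10 TPM, no filter, TMM rescaling, cohort or marker levels as covariates, cohorts 5 and 7a alone, and each animal left out; leaving out libraries by marker sums was chosen after seeing the data. Python 3.11.15, numpy 2.4.6, pandas 2.3.3 and matplotlib 3.10.9 were used. Animals' ages and blood ethanol were left out, and count models could not be fitted to TPM.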

Additional observations from a re-analysis of the deposited data

Results flagged for a closer look

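In 16 of 80 combinations of a gene and a group, the highest animal stood apart from the others by more of the group's range than Dixon's 95% limit for its size allows. About 1 in 20 groups of normally distributed values would pass that limit. Levels were used untransformed here and are skewed for several genes, so 16 of 80 cannot be set against that rate. The HD and VHD groups also repeat animals of HD*. NGFR stood apart at 185 TPM in Control, 4.07 TPM in LD* and 26.5 TPM in HD* and again VHD animals, where the next highest were 77.1, 1.92, 2.50 and 0.383 TPM. RET stood apart at 9.38 TPM in Control and 4.11 TPM in VHD animals, against at most 2.27 and 0.530 TPM in the others of those groups. BDNF stood apart at 2.90 TPM in Control, 6.13 TPM in LD* and 0.524 TPM in VHD animals. NTF3 stood apart at 0.702 TPM in Control, 0.276 TPM in LD*, 0.272 TPM in HD* and 0.0462 TPM in HD animals, the last being the single HD animal not at 0. NTRK2 reached 645 TPM in HD*, GDNF 2.39 TPM in HD and RIPK2 8.72 TPM in LD* animals.

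NGFR also moved in opposite directions in 2 cohorts. All 4 HD* animals of cohort 5 lay above the mean of that cohort's Control animals and all 4 of cohort 7a below theirs, and the log2 effects differed by −4.20, with an adjusted p of 1.00 for the interaction. In cohort 5, control replicate 2 at 0.410 TPM lay above HD* replicates 1 and 2 at 0.383 and 0.286 TPM, and without HD* replicate 4 the difference between the effects was −3.14. The mean of cohort 7a rests on 2 Control animals at 0.651 and 77.1 TPM, and HD* replicate 7 at 2.50 TPM lay above the lower of them. The difference was −1.41 without control replicate 8, −6.98 without control replicate 7 and −7.73 without the libraries high in cortical markers. Each of these 3 leaves 1 Control animal in cohort 7a, which the model assumes to vary like the other groups.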

How the results depend on the processing

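Pseudocounts, filters, TMM rescaling, cohort or cell marker covariates, cohorts 5 and 7a alone and each animal left out were planned. Leaving out libraries low in projection neuron markers or high in cortical markers was chosen after seeing the data. Of 58 results, 56 kept their direction and side of the threshold with a pseudocount of 0.1 TPM, 57 with 8 TPM, 56 with no filter (lost were the VHD calls of NTRK3 and SORCS3), 52 with TMM and 40 with cell marker covariates; all 36 did so with a filter at 10 TPM. Where a value below changed, the cause was not tested.

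Genes past the threshold between VHD and HD animals numbered 0 with cell marker covariates, 4651 without libraries low in projection neuron markers (HD* replicate 4 alone) and 25 without those high in cortical markers. Leaving out 1 animal gave 476 to 4651, namely 1094, 681, 4651, 607, 476 and 723 without HD* replicates 2, 3, 4, 5, 6 and 7. For the difference between cohorts in the HD* effect the count was 24 without libraries high in cortical markers and 0 to 14 with 1 animal left out, 14 without control replicate 7 and 1 without control replicate 2. The counts of 24 and 14 rest on control replicate 8 as the single Control animal of cohort 7a, which the model assumes to vary like the others.

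In HD* against Control, TMM gave 0.10 for NTRK3 and 0.0681 for GFRA1, cohort as covariate −0.0368 for GDNF and 0.0457 for GFRA1, cell marker covariates 0.0282 for GFRA1 and 0.00144 for RET, and cohorts 5 and 7a alone 0.12 for GFRA1 and 0.0797 for RET. With 1 animal left out NTRK3 ran from −0.17 to 0.0629, GDNF from −0.0501 to 0.14, GFRA1 from −0.16 to 0.0297 and RET from −0.43 to 0.0458.

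In LD* against Control, BDNF was −0.10 with a pseudocount of 0.1 TPM, −0.18 without libraries low in projection neuron markers and −0.24 without those high in cortical markers. Without libraries low in projection neuron markers NTF3 was 0.0346, NTRK3 −0.0865, NGFR 0.11, GFRA1 0.00552 and RET 0.0890. GDNF was −0.0214 with cell marker covariates, and GFRA2 0.0142 with a pseudocount of 8 TPM, 0.0201 with TMM and 0.0452 with cell marker covariates. With 1 animal left out BDNF ran from −0.18 to 0.31, NTRK3 from −0.0149 to 0.22, GDNF from −0.0665 to 0.10, GFRA1 from −0.15 to 0.0368, GFRA2 from −0.18 to 0.12 and RET from −0.36 to 0.0385.

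Between VHD and HD animals, cell marker covariates gave 0.23 for BDNF, −0.46 for NTF3, −0.74 for NTRK2, −4.90 for NGFR, −1.10 for GFRA2, 1.12 for VGF and 0.20 for SORCS2. BDNF was 0.22 without libraries high in cortical markers, and NGFR −0.40 and GFRA2 −0.11 without those low in projection neuron markers. With 1 animal left out BDNF ran from −0.18 to 0.0209, NGFR from −0.40 to 1.13 and GFRA2 from −0.12 to 0.10.

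Between HD* and LD* animals BDNF was 0.12 without libraries high in cortical markers, and NGFR −0.12 with a pseudocount of 0.1 TPM, −0.38 without libraries low in projection neuron markers and −0.38 to 0.34 with 1 animal left out. The slope on intake was 0.0852 for BDNF without libraries high in cortical markers, and for NGFR −0.17 with cohort as covariate, −0.15 without libraries low in projection neuron markers and −0.15 to 0.28 with 1 animal left out.

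For LD* against Control the log2 ratio of NTRK2 to NTRK3 was −1.22 without libraries high in cortical markers (exact permutation, p = 0.0498), and that of GFRA1 to GFRA2 was 0.0257 without libraries low in projection neuron markers and −0.21 to 0.11 with 1 animal left out. TPM do not carry the read depth of each library, which limits all values under 1 TPM, among them most of those for BDNF, NTF3 and NGFR.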
